A study of Mus musculus with 10 samples.

Results

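Cyp4a10, Cyp4a14, Cyp4a31 and Cyp4a32 are 4 neighbouring mouse genes on chromosome 4 that encode cytochrome P450 fatty acid omega-hydroxylases. They were chosen by name, with earlier results of these data known. Each matched 1 row of the count table (NCBI Gene 13117, 13119, 666168 and 100040843), and they are 4 of its 27179 genes. All 4 were among the 15226 genes left after the filter on low counts. Whole liver RNA came from male C57BL/6 mice that were homozygous for a floxed Lpcat3 allele (Lpcat3f/f) and were fed a NASH diet, which produces steatohepatitis, for 12 weeks. The 5 control samples carried no Cre, and the 5 LKO samples carried Albumin-Cre, which removes Lpcat3 where the albumin promoter is active, chiefly in hepatocytes. Lpcat3 encodes an acyltransferase that places polyunsaturated fatty acids into membrane phospholipids. The age of the mice is not given in the labels, no group on another diet was analysed, and presence of Cre and loss of Lpcat3 cannot be told apart in this design.

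Omega-hydroxylases of the endoplasmic reticulum oxidize the terminal methyl carbon of a fatty acid. The product passes through alcohol and aldehyde dehydrogenases to a dicarboxylic acid, which is shortened by beta-oxidation in peroxisomes. In mouse liver, Cyp4a10 and Cyp4a14 are classical target genes of the nuclear receptor PPARalpha, which fatty acids activate, and their transcripts are widely read as an index of PPARalpha activity. Cyp4a12a, their neighbour, encodes an omega-hydroxylase that is under androgen control and more abundant in males.

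The members are close copies of one another, and their sequences are shown because reads can be assigned to 1 member only where the copies differ. The first 120 coding bases of each, 5′ to 3′, follow, with capitals at the 47 positions where the 4 are not all alike.
Cyp4a10: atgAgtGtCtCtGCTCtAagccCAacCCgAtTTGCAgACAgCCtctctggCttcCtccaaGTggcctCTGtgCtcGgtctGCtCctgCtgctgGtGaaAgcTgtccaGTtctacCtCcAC
Cyp4a14: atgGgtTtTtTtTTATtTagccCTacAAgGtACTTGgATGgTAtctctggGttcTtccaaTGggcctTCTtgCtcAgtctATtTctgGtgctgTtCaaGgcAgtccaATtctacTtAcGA
Cyp4a31: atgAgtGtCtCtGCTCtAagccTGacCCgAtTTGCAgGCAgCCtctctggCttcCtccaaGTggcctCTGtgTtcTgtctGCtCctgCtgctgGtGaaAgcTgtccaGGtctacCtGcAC
Cyp4a32: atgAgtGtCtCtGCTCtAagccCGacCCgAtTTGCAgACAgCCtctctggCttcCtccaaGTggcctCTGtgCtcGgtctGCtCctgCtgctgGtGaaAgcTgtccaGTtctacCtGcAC
In this stretch Cyp4a14 differed from Cyp4a10 at 43 bases, Cyp4a31 at 7 and Cyp4a32 at 2.

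Over the whole coding sequence, Cyp4a10 was 96.6% identical to Cyp4a31 and 97.2% identical to Cyp4a32, and Cyp4a31 was 96.0% identical to Cyp4a32. Cyp4a14 was 75.1% identical to Cyp4a10. The sequences are from GENCODE M21, on build GRCm38, and serve here for comparison between the genes only. Reads in this study had 101 bases. Of all 101-base windows of the longest coding transcript, 12.5% in Cyp4a10, 8.05% in Cyp4a31 and 19.7% in Cyp4a32 occurred unchanged in a transcript of another gene, in every case another of these 3. Within the coding sequence alone, these shares were 17.7%, 13.6% and 19.8%. The Cyp4a32 transcript has 1530 bases, of which 1527 are coding with the stop codon. Sharing with Cyp4a32 outside the coding sequence could therefore not be seen. Cyp4a14 shared 0 of 2396 windows with any other gene. The longest coding stretch alike in all 3 copies had 148 bases, from coding position 1279 to 1426 of Cyp4a10, and is printed with capitals at the 24 positions where Cyp4a14 has another base or none when aligned.
Cyp4a10, Cyp4a31 and Cyp4a32: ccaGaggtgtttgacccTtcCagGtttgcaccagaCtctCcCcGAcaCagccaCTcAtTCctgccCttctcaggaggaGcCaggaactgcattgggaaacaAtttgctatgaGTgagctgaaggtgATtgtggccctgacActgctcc
A read that lies inside this stretch cannot be given to 1 of the 3 genes. The sources used here do not say how such reads were counted, so values for Cyp4a10, Cyp4a31 and Cyp4a32 are uncertain to that extent, and those for Cyp4a14 are free of this limit. In RefSeq, Cyp4a14 overlaps a long noncoding RNA gene model, Gm52676, which has no row in the count table.

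The 10 libraries held 26914124 to 46727182 counts, so a member with the lowest count, 386 in 1 library, was still far above the 3 counts that serve as the floor for detection. Lpcat3 itself was lower in all 5 LKO libraries (25.5 to 38.5 CPM) than in any control (94.1 to 123.9 CPM). CPM stands for counts scaled to a common library size, after the TMM correction for library composition. Each title also has a code of unstated meaning. A55 occurs in control alone, A67 in LKO alone, and A54 in control 1, LKO 1 and LKO 2. On the first principal component of all genes, with 56.8% of the variance, the score of control 4 was 30.2, among the LKO libraries (-8.03 to 82.3) and apart from the other controls (-52.7 to -30.1). LKO 3 had the highest score, and it also held 9.07 CPM of Adipoq and 7.86 CPM of Plin1, genes of fat cells, where no other library exceeded 0.189 CPM of either. The fold changes of the members and the counts of the metabolic gene lists are therefore also given without control 4 and LKO 3. The labels number the samples and do not say in words that each is a separate mouse, so the spread behind each p-value is that between samples.

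Transcripts of all 4 genes were more abundant on average in LKO liver, by 1.94-fold to 6.49-fold, and with all 10 libraries none passed an adjusted p of 0.05 in edgeR. Cyp4a14 differed most, followed by Cyp4a10, Cyp4a31 and Cyp4a32.

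Cyp4a14 had 18.0, 45.8, 34.1, 41.5 and 169 CPM in controls 1 to 5 and 167, 307, 238, 675 and 618 CPM in LKO 1 to 5. Control 5 stood apart from the other controls and matched LKO 1, which was the only overlap between the groups. The means were 61.7 ± 61.0 CPM in control and 401 ± 230 CPM in LKO (SD, n = 5), and LKO exceeded control by 2.70 on the log2 scale (SE 0.61; quasi-likelihood F test of edgeR, adjusted p = 0.0921 over all genes tested). Among the 15226 genes tested, it was the 7th largest fold change toward LKO. Without control 5 the log2 fold change was 3.52 (edgeR adjusted p = 0.0772).

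Cyp4a10 had 156, 226, 148, 78.4 and 211 CPM in controls 1 to 5 and 358, 310, 211, 773 and 457 CPM in LKO 1 to 5. LKO 3 lay among the controls, level with control 5 and under control 2, and the other 4 LKO libraries were above every control. The means were 164 ± 58.6 CPM in control and 422 ± 215 CPM in LKO (SD, n = 5), and the log2 fold change was 1.36 (SE 0.36; edgeR adjusted p = 0.106).

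Cyp4a31 had 18.8, 21.1, 16.7, 12.4 and 20.7 CPM in controls 1 to 5 and 37.0, 35.5, 25.0, 63.9 and 47.4 CPM in LKO 1 to 5. It was the one member whose groups did not overlap, and 1.72% of all genes tested were apart in that direction. The means were 17.9 ± 3.54 CPM in control and 41.8 ± 14.7 CPM in LKO (SD, n = 5), and the log2 fold change was 1.22 (SE 0.23; edgeR adjusted p = 0.0766).

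Cyp4a32 had 73.3, 67.4, 55.4, 29.1 and 67.4 CPM in controls 1 to 5 and 125, 97.6, 54.7, 174 and 116 CPM in LKO 1 to 5. Again LKO 3 lay among the controls and the other LKO libraries were above all of them. The means were 58.5 ± 17.7 CPM in control and 113 ± 43.2 CPM in LKO (SD, n = 5), and the log2 fold change was 0.95 (SE 0.30; edgeR adjusted p = 0.134). The copies Cyp4a10, Cyp4a31 and Cyp4a32 shared their extremes, with control 4 lowest among the controls and LKO 4 highest of all 10 libraries.

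**Figure D1:**
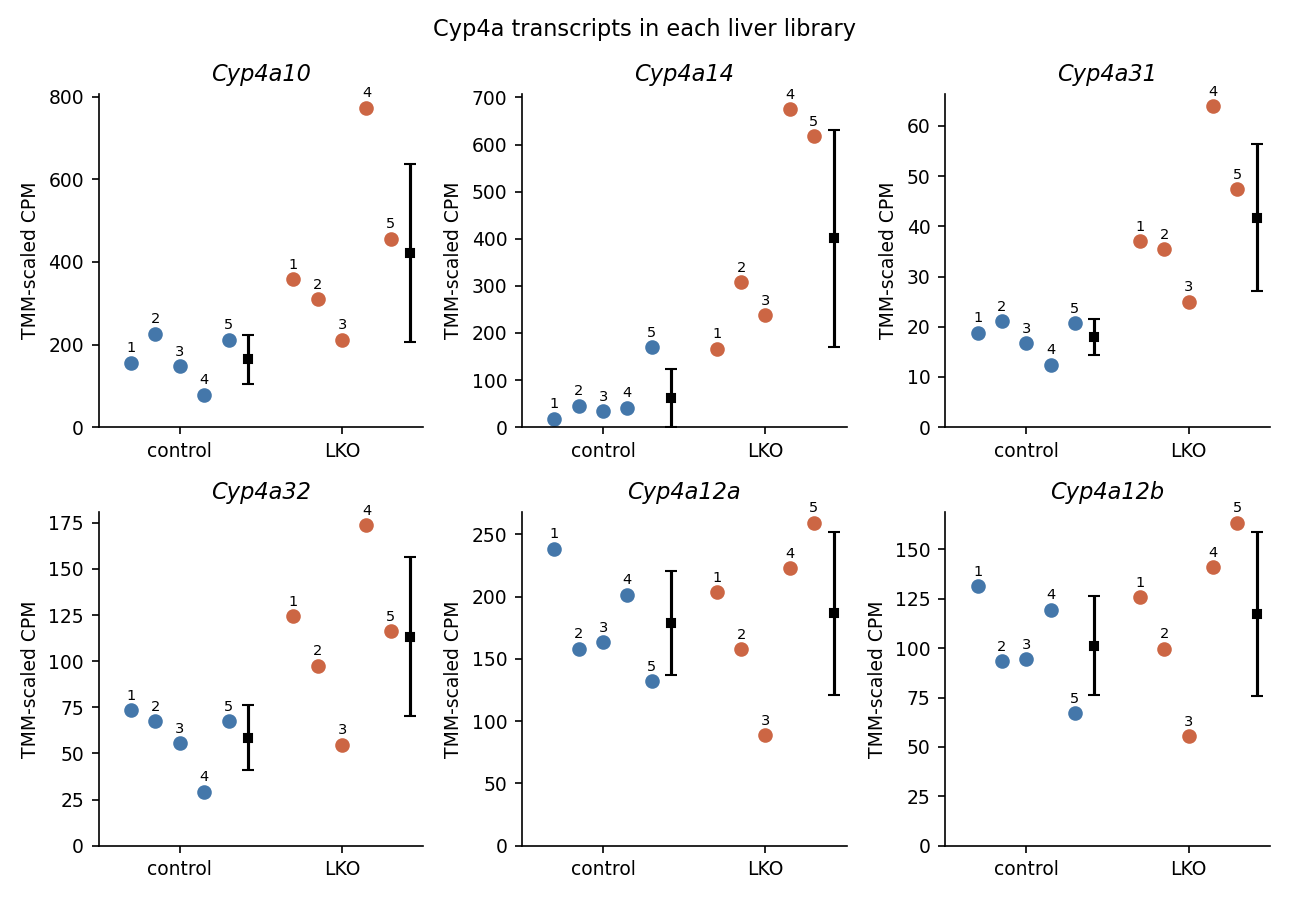
TMM-scaled CPM of the 4 Cyp4a members and of Cyp4a12a and Cyp4a12b in each liver library, with control in blue, LKO in orange, replicate numbers beside the points, and black squares with bars for mean ± SD (n = 5). In Cyp4a31 every LKO point lies above every control point, in Cyp4a10 and Cyp4a32 LKO 3 lies among the controls, in Cyp4a14 control 5 lies level with LKO 1, and in Cyp4a12a and Cyp4a12b the groups overlap widely.

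Of the 4 members, 0 were called by edgeR at an adjusted p under 0.05, beside 0.0657% of all genes tested. All 4 had an unadjusted p under 0.05 and were higher in LKO, as were 12.8% of all genes. At the adjusted threshold, edgeR called 0.0263% of all genes as higher. Under DESeq2, 4 of 4 were called, beside 7.79% of all genes, and under limma voom with quality weights 4 of 4, beside 16.2%. With total counts in place of TMM, edgeR called 1 of 4, Cyp4a31, beside 0.0788% of all genes. All 4 had a log2 fold change above 0, as did 49.5% of all genes, and 3 had one of at least 1, against 4.91%.

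The call depended on which libraries entered the fit, while the direction was the same in each of the 10 fits with 1 library left out. Without control 4, edgeR called Cyp4a10, Cyp4a14 and Cyp4a31 (adjusted p = 0.0373, 0.0306 and 0.0143) and Cyp4a32 had an adjusted p of 0.0669. In that fit 15.0% of all genes were called. The fold changes of the members were smaller there than with all libraries (log2 1.19, 2.58, 1.11 and 0.78 for Cyp4a10, Cyp4a14, Cyp4a31 and Cyp4a32), while far more genes were called. Without LKO 3 the log2 fold changes were 1.53, 2.82, 1.35 and 1.12 in the same order, and Cyp4a31 was called (edgeR adjusted p = 0.0493; 0.0719% of all genes called). Within code A54, the mean of 2 LKO libraries exceeded the 1 control by 1.10 for Cyp4a10, 3.65 for Cyp4a14, 0.94 for Cyp4a31 and 0.59 for Cyp4a32 on the log2 scale. That control, control 1, had the lowest Cyp4a14 of all libraries (18.0 CPM). In codes A55 and A67, code and genotype cannot be told apart. A fit with the code as a covariate therefore takes its genotype term from A54 alone and repeats this comparison. With the code as a covariate, edgeR gave 1.10, 3.72, 0.94 and 0.60 for the 4 (adjusted p = 0.878 for the first 3 and 0.905 for Cyp4a32).

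**Figure D2:**
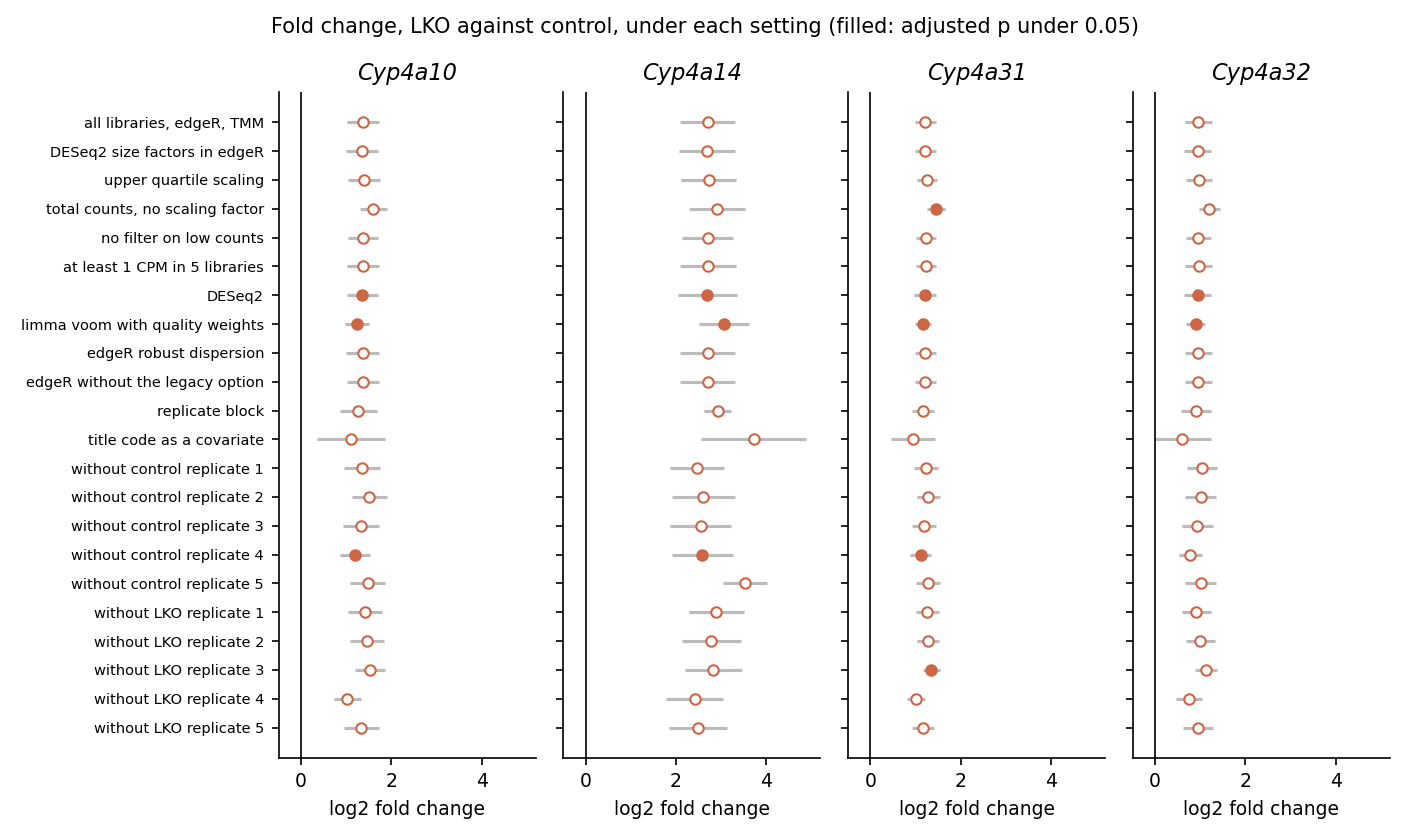
Log2 fold change of each Cyp4a member, LKO against control, with all libraries (top row) and under each other setting, where bars are 1 standard error and filled points have an adjusted p under 0.05. All points lie right of 0, and all 4 members are filled under DESeq2 and limma voom with quality weights, while 3 of 4 are filled without control replicate 4.

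Levels of different genes were compared per kilobase of coding length without the stop codon. This was 1518 bases for Cyp4a14 and 1524 bases for each of the other 3. Whole transcripts differed more, with 2109, 2496, 2509 and 1530 bases for Cyp4a10, Cyp4a14, Cyp4a31 and Cyp4a32. Levels per kilobase of transcript were not computed, so the order below holds for coding length only. In control liver the order was Cyp4a10 (107 ± 38.5 CPM per kilobase), Cyp4a14 (40.7 ± 40.2), Cyp4a32 (38.4 ± 11.6) and Cyp4a31 (11.8 ± 2.32; SD, n = 5). Cyp4a14 and Cyp4a32 did not differ beyond their spread in control. In LKO liver Cyp4a14 stood at 264 ± 152 CPM per kilobase, within the spread of Cyp4a10 at 277 ± 141, ahead of Cyp4a32 at 74.4 ± 28.3 and Cyp4a31 at 27.4 ± 9.65. Cyp4a12a, at 117 ± 27.4 in control and 123 ± 43.2 in LKO, was level with Cyp4a10 in control.

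Ratios of counts within a library do not depend on how libraries are scaled, and they were used to ask whether the members differed alike. The ratio of Cyp4a14 to Cyp4a10 was 0.116, 0.203, 0.231, 0.530 and 0.80 in controls 1 to 5 and 0.466, 0.990, 1.13, 0.873 and 1.35 in LKO 1 to 5. The groups overlapped through controls 4 and 5 and LKO 1. On the log2 scale the mean ratio was higher by 1.61 in LKO (exact two-sided permutation test, p = 0.0317, adjusted p = 0.0595 over 6 pairs). The ratio of Cyp4a14 to Cyp4a31 was higher by 1.76 and that to Cyp4a32 by 2.0 (exact p = 0.0159 and 0.0238, adjusted p = 0.0595 for both). No pair of members therefore passed at 0.05, although each ratio with Cyp4a14 was higher in LKO on average.

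Among the 3 near copies, the ratios were steadier. Cyp4a10 had 6.29 to 10.7 counts for each count of Cyp4a31 in control and 8.45 to 12.1 in LKO, and the log2 difference was 0.15 (exact p = 0.429, adjusted p = 0.429). Cyp4a10 to Cyp4a32 ran from 2.12 to 3.35 in control and from 2.88 to 4.45 in LKO, a log2 difference of 0.39 (exact p = 0.0397, adjusted p = 0.0595). Cyp4a31 to Cyp4a32 differed by 0.24 (exact p = 0.167, adjusted p = 0.2). Without LKO 1, which had the lowest Cyp4a14 to Cyp4a10 ratio in its group, all 3 ratios with Cyp4a14 passed (differences of 1.85, 2.0 and 2.33 against Cyp4a10, Cyp4a31 and Cyp4a32; exact adjusted p = 0.0317), as did Cyp4a10 to Cyp4a32 (0.47; exact adjusted p = 0.0476).

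Of the other Cyp4a genes, Cyp4a29 and Cyp4a30b had at most 7 counts in any library and were not tested. Cyp4a12a had 238, 158, 163, 202 and 132 CPM in controls 1 to 5 and 204, 158, 88.7, 223 and 259 CPM in LKO 1 to 5, and the groups overlapped throughout (log2 fold change 0.06, SE 0.26; edgeR adjusted p = 0.901). Cyp4a12b, its near copy with 98.5% coding identity, had a log2 fold change of 0.21 (SE 0.26; edgeR adjusted p = 0.655). LKO 3 had the lowest level of both. The difference between the members and these relatives was tested as the ratio of each member to the sum of Cyp4a12a and Cyp4a12b, a comparison chosen after the values were seen. The log2 ratio was higher in LKO by 1.26 for Cyp4a10, 2.87 for Cyp4a14, 1.11 for Cyp4a31 and 0.87 for Cyp4a32, each with an adjusted p of 0.0159 over 4 ratios by the exact permutation test. For Cyp4a10 the ratio was 0.244 to 1.06 in control and 1.08 to 2.13 in LKO, and for Cyp4a31 it was 0.0388 to 0.104 and 0.112 to 0.176. These 2 did not overlap between groups, and those of Cyp4a14 and Cyp4a32 did. With any 1 library left out, all 4 kept an exact adjusted p of at most 0.0317.

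**Figure D3:**
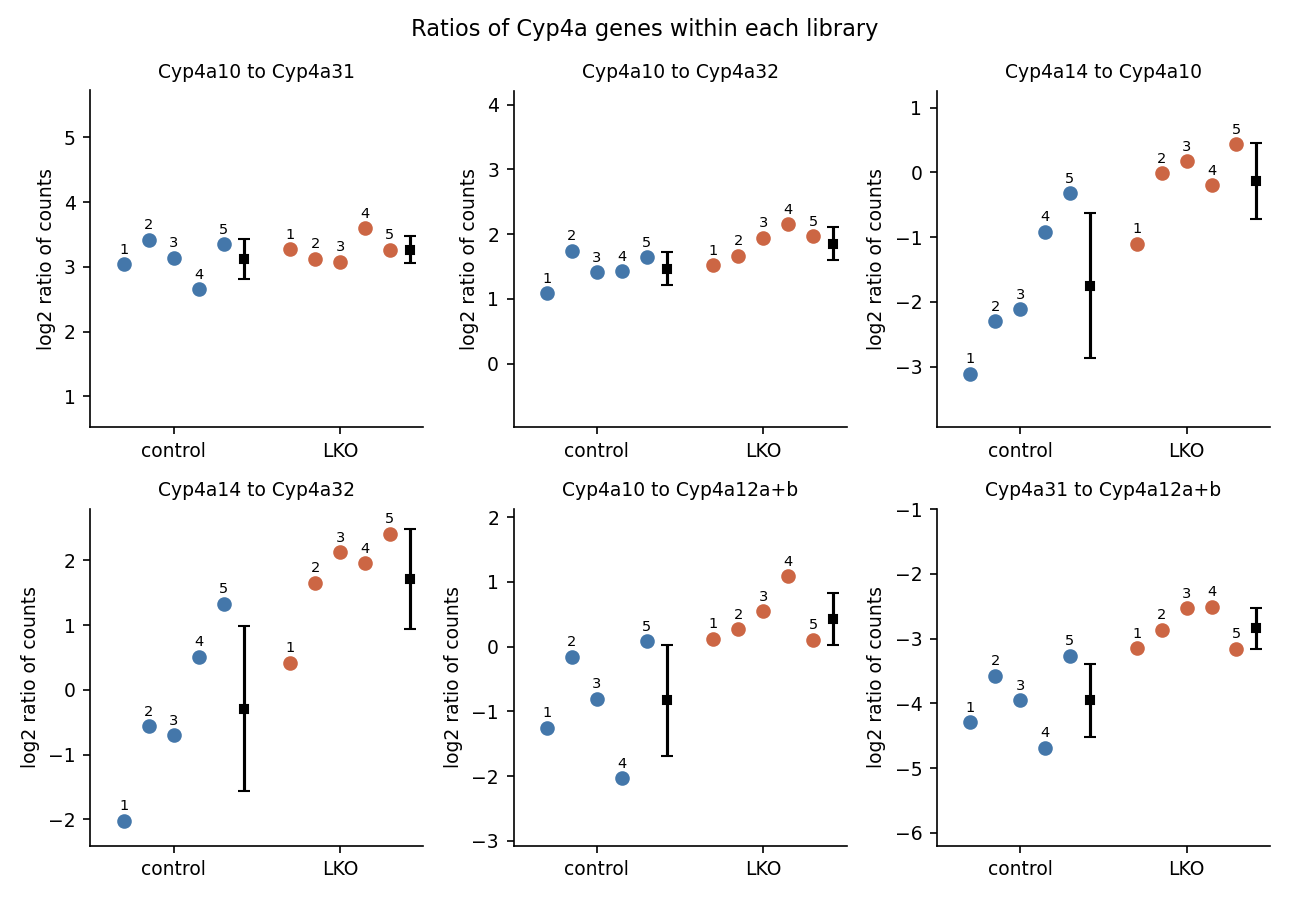
Log2 ratio of counts of 2 Cyp4a genes in each library, with control in blue, LKO in orange, replicate numbers beside the points, and black squares with bars for mean ± SD (n = 5); every panel spans the same number of log2 units. Cyp4a10 to Cyp4a31 is nearly level between groups, Cyp4a14 to Cyp4a10 and to Cyp4a32 is higher in most LKO libraries, and the ratios of Cyp4a10 and Cyp4a31 to the sum of Cyp4a12a and Cyp4a12b do not overlap between groups.

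Other P450 genes that act on fatty acids did not share one direction, and with all 10 libraries edgeR called none. Of the 8 tested genes of the Cyp4b, Cyp4f and Cyp4v families, 4 were higher and 4 lower, with a median log2 fold change of -0.23 against -0.00 for all genes. By edgeR 0 were called, with 1 higher and 3 lower at an unadjusted p under 0.05 (12.8% and 9.50% of all genes). DESeq2 called 2 as lower, and limma voom 2 as higher and 3 as lower (7.79% and 16.2% of all genes called in either direction). Cyp4f14, which inactivates leukotriene B4, averaged 137 ± 30.9 CPM in control and 71.5 ± 24.1 in LKO (SD, n = 5), a log2 fold change of -0.93 (edgeR adjusted p = 0.0999). Cyp4v3, a medium-chain omega-hydroxylase gene, stood at -0.67, Cyp4f13 at -0.46 and the scarce Cyp4f16 at 1.13 (edgeR adjusted p = 0.138, 0.147 and 0.15). With 1 library left out this median ran from -0.28 to 0.19, and under the other settings from -0.45 to 0.15. The genes that passed the filter changed as well. The median of 8 genes was -0.28 without LKO 2, -0.21 without LKO 4 and 0.02 with total counts. It was 0.19 over 10 genes without control 1. Without control 4, where 15.0% of all genes were called, edgeR called 2 of 9 as higher and 3 as lower (median -0.02), without LKO 3 it called 0 of 9 (median 0.06), and without LKO 1, with 86 genes called in all, it called 1 as lower.

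Of 14 genes listed from P450 family 2 and the epoxide hydrolases, 3 were higher and 11 lower, with a median of -0.58. By edgeR 0 were called, with 2 higher and 4 lower at an unadjusted p under 0.05 (12.8% and 9.50% of all genes). DESeq2 called 2 as lower while limma voom called 1 as higher and 4 as lower (7.79% and 16.2% of all genes called). Without control 4 edgeR called 3 as lower (median -0.64), beside 15.0% of all genes called. Without LKO 1 it called 1 as lower (median -0.70), beside 86 of all 15403 genes tested in that fit. Without LKO 3 it called 0 and the median was -0.38. With total counts, 4 were higher and 10 lower (median -0.36). Cyp2u1, a long-chain omega-hydroxylase gene of another family, averaged 31.7 ± 5.37 CPM in control and 10.6 ± 6.20 in LKO (SD, n = 5), and its groups did not overlap, as in 2.23% of all genes in that direction (log2 fold change -1.58, SE 0.35; edgeR adjusted p = 0.0882). Cyp2c70 stood at -1.13, the epoxygenase gene Cyp2c44 at -0.64 and Ephx1, of the microsomal epoxide hydrolase, at 0.34 (edgeR adjusted p = 0.0999, 0.174 and 0.188).

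The electron donors that P450 enzymes need showed no difference that edgeR called with all libraries. Of 5 tested, 3 were higher and 2 lower (median 0.07), and 0 were called by edgeR or DESeq2. An unadjusted p under 0.05 was found for 0, and limma voom called 1, beside 16.2% of all genes. Without control 4 edgeR called 1 as higher (median 0.07), beside 15.0% of all genes called, and without LKO 3 it called 0 (median 0.21). The direction was not steady, with a median of -0.03 without control 5, and with total counts all 5 were higher (median 0.28). Por, the P450 reductase, stood at 0.27, Cyb5a, of microsomal cytochrome b5, at -0.20, Cyb5b at -0.08 and Cyb5r1 at 0.43 (edgeR adjusted p = 0.614, 0.548, 0.814 and 0.254).

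Downstream of omega-hydroxylation, 2 of 9 tested alcohol and aldehyde dehydrogenase genes were higher and 7 lower (median -0.17). With total counts, 6 were higher and 3 lower (median 0.07). By edgeR 0 were called, with 2 higher and 1 lower at an unadjusted p under 0.05 (12.8% and 9.50% of all genes). DESeq2 called 1 in each direction, and limma voom 2 as higher and 1 as lower (7.79% and 16.2% of all genes called). Without control 4 edgeR called 1 as lower (median -0.27), beside 15.0% of all genes called. Without LKO 3 it called 0, with 4 higher and 5 lower (median -0.03). Aldh3a2, the fatty aldehyde dehydrogenase that completes the dicarboxylic acid, averaged 603 ± 80.5 CPM in control and 875 ± 222 in LKO (SD, n = 5; log2 fold change 0.54, SE 0.19; edgeR adjusted p = 0.152). LKO 3, at 538 CPM, was inside the range of the controls (516 to 679 CPM), and the other 4 LKO libraries (833 to 1149 CPM) were above it. Aldh1a7 stood at 0.33, Adh4 at -0.62 and Adh7 at -0.51 (edgeR adjusted p = 0.208, 0.124 and 0.233).

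Of 17 peroxisomal beta-oxidation genes, 13 were higher and 4 lower, with a median of 0.15. By edgeR 0 were called, and 3 had an unadjusted p under 0.05, all higher, as had 12.8% of all genes. DESeq2 called 1 and limma voom 2, all higher, beside 7.79% and 16.2% of all genes called in either direction. Without control 4 edgeR called 2 as higher, beside 15.0% of all genes called, with 11 higher and 6 lower in all (median 0.09). Without LKO 3 it called 0, with 15 higher and 2 lower (median 0.28). The median was 0.09 without LKO 4 as well, and with total counts all 17 were higher (median 0.41, where the median of all genes was 0.24). Ehhadh, the bifunctional enzyme that acts on dicarboxylic acids, had 296, 318, 183, 156 and 240 CPM in controls 1 to 5 and 332, 333, 417, 628 and 462 CPM in LKO 1 to 5. Its groups did not overlap, as in 1.72% of all genes in that direction. LKO 4 was highest and control 4 lowest, as for Cyp4a10 (log2 fold change of Ehhadh 0.86, SE 0.23, edgeR adjusted p = 0.108). Abcd2, a peroxisomal fatty acid transporter gene, stood at 1.01, the thiolase gene Acaa1b at 0.59 and the thioesterase gene Acot3 at 1.04 (edgeR adjusted p = 0.149, 0.202 and 0.332).

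Other target genes of PPARalpha were higher more often than lower. Of 26 tested, 19 were higher and 7 lower, with a median of 0.29. An unadjusted p under 0.05 was found for 12, all higher, and for 12.8% of all genes in that direction. By edgeR 0 were called, and DESeq2 and limma voom each called 9 as higher, beside 7.79% and 16.2% of all genes called in either direction. Without control 4 edgeR itself called 8 as higher (median 0.30), beside 15.0% of all genes called in either direction. Without LKO 1 it called 1 as higher, beside 86 of all 15403 genes tested in that fit. Without LKO 3 it called 0 (median 0.33). Without LKO 4, 18 were higher and 8 lower (median 0.20), and with total counts all 26 were higher (median 0.51). Acot2, a mitochondrial thioesterase gene, had 32.7, 31.4, 16.7, 25.6 and 29.2 CPM in controls 1 to 5 and 44.2, 43.4, 67.3, 111 and 79.3 CPM in LKO 1 to 5. Its groups did not overlap, as in 1.72% of all genes in that direction (log2 fold change 1.35, SE 0.27, edgeR adjusted p = 0.0766). Pdk4, which restrains glucose oxidation, stood at 2.09, the fatty acid transporter gene Cd36 at 0.71 and Hadhb, of the mitochondrial trifunctional protein, at 0.31 (edgeR adjusted p = 0.0999, 0.106 and 0.106). Pdk4 in control 4 (18.1 CPM) was level with LKO 1 (18.5 CPM) and above LKO 2 (12.7 CPM), while Cyp4a10 in control 4 was the lowest of all. Fabp1, of the liver fatty acid binding protein and chosen after its values were seen, had a log2 fold change of -0.05 (edgeR adjusted p = 0.918).

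Transcripts of the receptor and its partners were mostly lower in LKO. Of 14 tested, 3 were higher and 11 lower (median -0.21), and 0 were called by edgeR. An unadjusted p under 0.05 was found for 4, all lower, and for 9.50% of all genes in that direction. DESeq2 called 1 and limma voom 2 as lower, beside 7.79% and 16.2% of all genes called in either direction. With libraries scaled to total counts, where the median of all genes was 0.24, 10 were higher and 4 lower (median 0.04). Without control 4 or LKO 3, edgeR called 0 and 3 were higher and 11 lower in each case (median -0.20). Rxra, the partner of PPARalpha on DNA, averaged 412 ± 31.2 CPM in control and 321 ± 52.6 in LKO (SD, n = 5), a log2 fold change of -0.36 (edgeR adjusted p = 0.153). The coactivator genes Ncoa1, Ncoa2 and Med1 stood at -0.21, -0.21 and -0.18 (edgeR adjusted p = 0.155, 0.211 and 0.201). Ppara itself, chosen after its values were seen, averaged 520 ± 98.0 CPM in control and 431 ± 125 in LKO (SD, n = 5; edgeR adjusted p = 0.486).

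**Figure D4:**
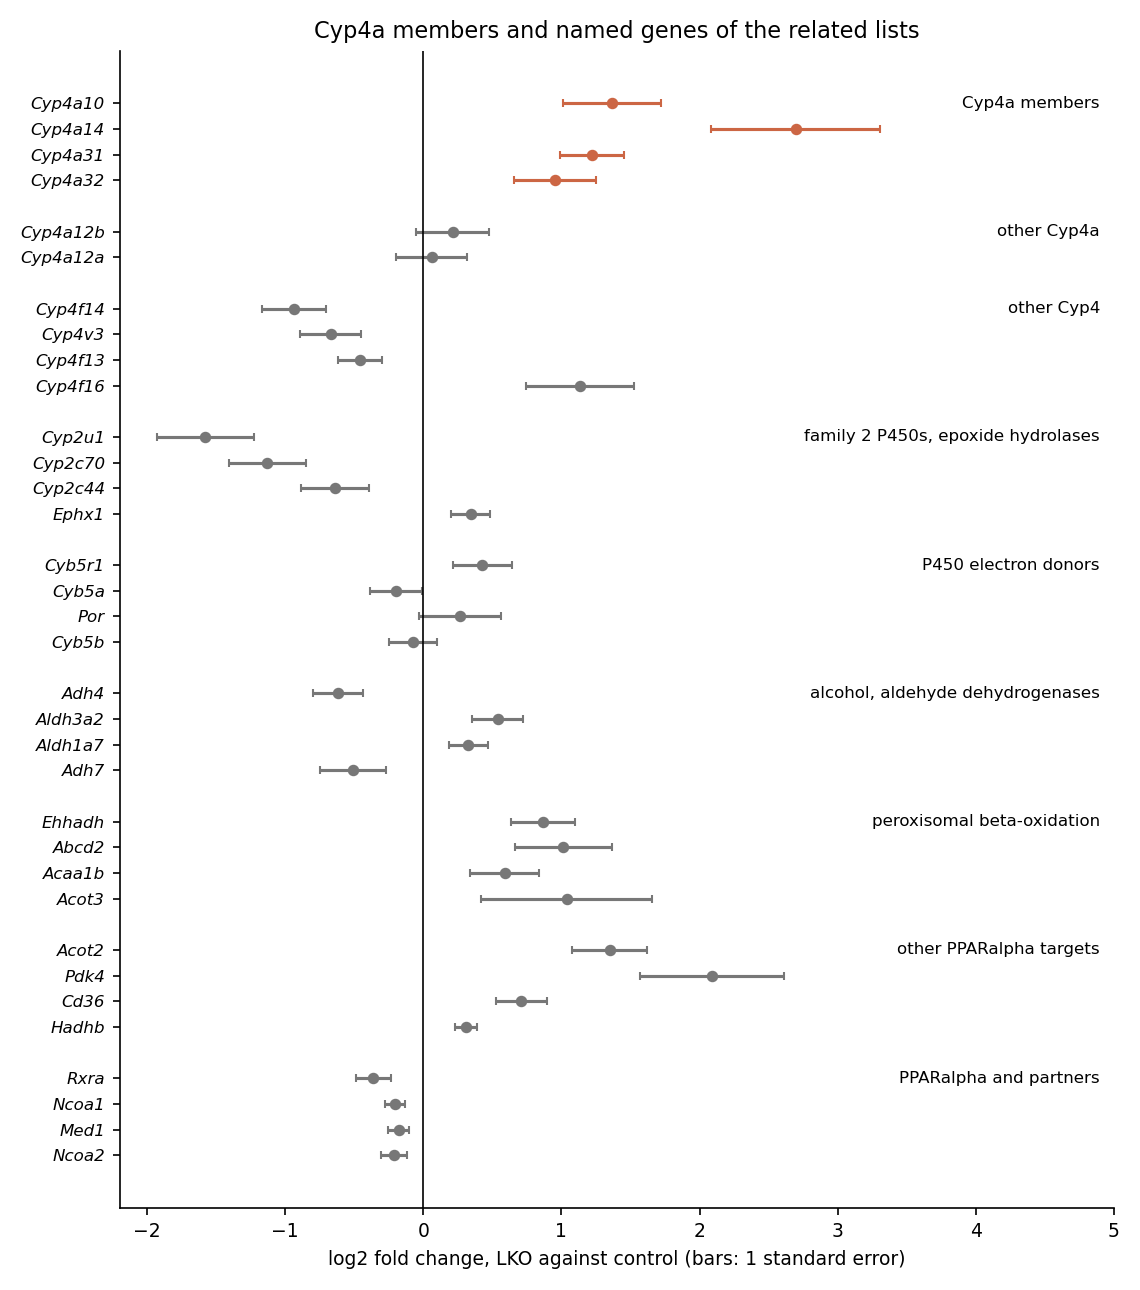
Log2 fold change, LKO against control, of the 4 Cyp4a members (orange) and of up to 4 genes with the smallest p from each related list (grey), with bars of 1 standard error. The 4 members lie between 0.95 and 2.70, Cyp4a12a and Cyp4a12b near 0, the named family 2 P450 genes below 0, and Acot2 and Pdk4 at 1.35 and 2.09.

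Markers of liver cell types went mostly 1 way within each list. Their summed levels, in which the most abundant markers weigh most, overlapped between the groups in every list. Single markers could still separate the groups. The endothelial markers Pecam1 and Cdh5 were apart and higher in LKO, as in 1.72% of all genes. The hepatocyte marker Hnf4a was apart and lower, as in 2.23% of all genes. In the other lists of liver cell types, 0 were apart. Calls of these markers under other settings were not counted. All 7 hepatocyte markers were lower in LKO (median -0.48, 0 called by edgeR), and their summed level was 42012 to 73071 CPM in control and 36964 to 54951 CPM in LKO. Of 8 macrophage markers 7 were higher (summed level 257 to 514 CPM in control and 433 to 649 CPM in LKO), of 6 stellate cell markers 6 (244 to 584 and 340 to 786 CPM), of 4 endothelial markers 4 (221 to 277 and 234 to 374 CPM), of 5 cholangiocyte markers 5 (23.3 to 157 and 28.0 to 361 CPM) and of 4 lymphocyte markers 3 (1.19 to 2.23 and 1.88 to 3.21 CPM), with 0 called by edgeR in any list with all libraries. None of these markers was at 0 in any library. Relative to the control mean, the cholangiocyte markers averaged 2.99 in LKO 3 and 2.14 in LKO 5 on the log2 scale. They averaged -0.41, 0.23 and -0.02 in LKO 1, 2 and 4, beside 1.22 in control 4. The markers of muscle and kidney were at most at 7 counts. In whole liver, fewer cells of a type and less RNA per cell cannot be told apart, and the part of cell composition in the levels of the Cyp4a genes was not tested.

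The genes whose pattern was most like that of the members were found on log2 CPM centred within each group, so that the difference between genotypes played no part. Among 13274 genes with a mean of at least 1 CPM, the 6 with the highest likeness to the mean of the 4 members over the 10 libraries were Gm6568, Hprt, Psma2, Serf2, Cgrrf1 and Bag1, with Pearson r from 0.948 (Bag1) to 0.969 (Gm6568). These values are a description of the closest of many genes and have no test. The lowest adjusted p among the 6 between genotypes was 0.446 (edgeR, Bag1). By the same measure Cyp4a10 had an r of 0.977 with Cyp4a31, 0.922 with Cyp4a32 and 0.519 with Cyp4a14, and Cyp4a14 had 0.251 with Cyp4a32. The points share their libraries and, for the 3 near copies, may share reads.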

How the data were processed

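Per the labels' protocols, frozen liver RNA was depleted of ribosomal RNA with FastSelect, made into libraries with a stranded Kapa Hyper kit, and read from 1 end for 101 cycles on 1 NovaSeq lane. The deposited table holds raw counts per gene (NCBI Gene numbers) and library, not normalized, with totals of 26914124 to 46727182. Named in the submitters' processing notes are build GRCm39, bcl2fastq 2.20 and DESeq2. Aligner, counting tool, strand setting and annotation: not given in the sources used here. All 10 columns were matched by name, and 0 were left unused.

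Symbols came from a RefSeq table (GRCm38.p6), which matched 25275 genes; the rest held 0.693% of counts. The comparison was fitted by edgeR 4.0.16 in R 4.3.3 (filterByExpr, TMM, quasi-likelihood F test with the legacy option, genotype the only term, two-sided), adjusted by Benjamini-Hochberg over 15226 genes at 0.05. Standard errors are the log2 fold change divided by the root of F. Ratios of counts (0.5 added) were compared by exact two-sided permutation over 252 assignments, where the smallest p is 0.00794. Sequences were aligned with Biopython 1.88, and figures drawn with matplotlib 3.10.9. Alternatives were other scalings and filters, DESeq2 1.42.0, limma 3.58.1 voom, robust and non-legacy edgeR, a replicate block, the title code as covariate, and fits without each library in turn. Ratios to Cyp4a12a plus Cyp4a12b were added after seeing the data.

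Members and lists were chosen with earlier results of these data known. Named genes were Lpcat3, the members, every other Cyp4a gene, up to 4 genes with the smallest p from each list, and the 6 most like the members; genes outside this rule are marked where they appear. Protein sequences were not used here. Of the members, 1 of 4, Cyp4a32, had an entry in the RefSeq promoter table (300 bases, GRCm38.p6). It held neither AGGTCA on either strand, 2 such copies 1 base apart with at most 2 mismatches, nor TATAAA on the plus strand, which occur in 16.3%, 3.86% and 8.32% of 32851 promoters. The edgeR fit, tested on simulated data, found 58 of 98 genes with a 2-fold change and 86 of 96 with a 4-fold change (15094 genes, 8 false calls). On the same data DESeq2 found 72 and 93, with 42 false calls. Simulated counts were drawn independently for each gene from the dispersions that edgeR had estimated. They held no differences between libraries that many genes share, such as that of control 4. The figures therefore do not give the power or error rate in the real libraries.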

Additional observations from a re-analysis of the deposited data

Results flagged for a closer look

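The 41 named genes with a test gave 82 groups of 5 libraries. In 9 of them, 1 library stood so far from the nearest of the others that the gap exceeded 0.71 of the group's range. For independent groups of 5 values from a normal distribution, this happens in about 1 in 20. The genes here share their libraries and the shape of their CPM values was not checked. The counts are therefore a description and are not tested against that share. Over all 128 tested genes of the lists, it was so in 35 of 256 groups, and control 4 was the library in 22 of these. Among the members this was Cyp4a14 in control 5, at 169 CPM with the next control at 45.8 CPM. Control 4 was the library concerned for Cyp4f16 (2.74 CPM, next 1.06), Cyb5a (393 CPM, next 613), Cyb5r1 (6.96 CPM, next 4.23), Pdk4 (18.1 CPM, next 7.17), Rxra (357 CPM, next 424) and Ncoa1 (45.5 CPM, next 41.8). In LKO, Cyp4f16 in LKO 3 stood at 4.92 CPM (next 2.62) and Cyp2c44 in LKO 1 at 368 CPM (next 216).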

How the results depend on the processing

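The 4 members were higher in LKO under every alternative run. Among these, the fit with the title code took its genotype term from code A54 alone. With other settings than leaving out a library, log2 fold changes ran from 1.10 to 1.6 for Cyp4a10, 2.69 to 3.72 for Cyp4a14, 0.94 to 1.45 for Cyp4a31 and 0.60 to 1.19 for Cyp4a32. With 1 library left out they ran from 1.02 to 1.53, 2.41 to 3.52, 1.01 to 1.35 and 0.74 to 1.12, with edgeR adjusted p from 0.0373 to 0.266, 0.0306 to 0.256, 0.0143 to 0.218 and 0.0669 to 0.299. DESeq2 called all 4 (1.36, 2.69, 1.21 and 0.95 in the same order; adjusted p = 0.00486, 0.00308, 0.000168 and 0.0305), as did limma voom with quality weights (1.24, 3.07, 1.17 and 0.90; adjusted p = 0.0132, 0.00891, 0.00758 and 0.0157). With total counts, Cyp4a31 was called (1.45, edgeR adjusted p = 0.0258), while the median of all genes was 0.24. The cause of these differences was not tested.

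The number of genes called, 10 of 15226, was 31 with no filter on low counts, 20 with at least 1 CPM in 5 libraries, 1186 with DESeq2, 2460 with limma voom, 2 with the replicate block, 0 with the title code as a covariate (760 at an unadjusted p under 0.05; DESeq2 and voom were not run with it) and 2 to 2296 with 1 library left out. Whether the replicate numbers pair the samples was not tested. Correlations of same-numbered libraries ran from -0.40 to 0.42, and 1 of 5 controls correlated best with its own number. With the replicate block the members stood at 1.27, 2.93, 1.16 and 0.90 (edgeR adjusted p = 0.19, 0.0933, 0.161 and 0.224).

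With 1 library left out, the log2 ratio differences ran from 1.27 to 1.97 for Cyp4a14 to Cyp4a10, 1.40 to 2.17 to Cyp4a31, 1.57 to 2.41 to Cyp4a32, and 0.30 to 0.47 for Cyp4a10 to Cyp4a32, and passed without LKO 1 alone. With 5 counts added in place of 0.5, no ratio changed its call.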
